A study of Mus musculus with 18 samples.

Results

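The Steap metalloreductases and a set of iron uptake, storage and export genes were followed in cultured mouse mammary fibroblasts given medium conditioned by tumour cells. The 10 genes, Steap1, Steap2, Steap3, Steap4, Lcn2, Tfrc, Slc40a1, Slc39a14, Slc11a2 and Fth1, were found by their symbols among the 55486 genes of the count table. All 10 passed the filter on low counts, as did 14273 genes in all. The genes were named as a family and its pathway with results of these data already known, and Steap3 was chosen on its measured values: its difference between the fibroblast types in control medium and the difference between the types in its response to tumour medium. Values of Steap3 are therefore given as a description, with no test of differences between groups.

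Primary CD26- and CD26+ normal fibroblasts (NFs) came from mammary glands of adult female mice on the FVB/n background and spent 7 days either in control conditioned medium or in the conditioned medium (CM) of 1 of 6 tumour cell lines. These lines, 13-MCB-17, 10-SJK-221, 18-MCB-12, 13-MCB-44, 13-MCB-90 and 13-MCB-138, derive from a mouse model of invasive lobular carcinoma, in which the alleles that Wap-driven Cre deletes in mammary epithelium include E-cadherin. There were 3 control and 6 CM libraries of CD26- NFs, and the same numbers of CD26+ NFs, so that each line gave CM to 1 culture of each type. All fibroblasts were sorted as negative for epithelial, immune and endothelial surface markers, came from pooled mice and were expanded in culture before treatment. For normal fibroblasts in general the study names donors without Wap-Cre that carried either floxed alleles, E-cadherin among them, or the mTmG reporter, and the labels do not say which of these gave a culture. Nothing in the labels says which cultures of a group began from separate sorts, so the p-values measure the spread between these cultures.

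Cells take up iron bound to transferrin through the transferrin receptor, reduce it inside endosomes with ferrireductases of the Steap family, and move the reduced metal to the cytosol through divalent metal transporters. Iron that is not used is stored inside ferritin shells or leaves the cell through ferroportin, and iron-regulatory proteins tune this system by binding hairpins in the messenger RNAs of several of these genes. In inflamed tissue fibroblasts and epithelium can also make lipocalin 2, which binds iron-carrying siderophores, and Steap4, which responds to inflammatory cytokines.

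Library totals ran from 9725723 to 14585349 counts, and mitochondrial genes took 0.446 to 0.628% of them. Markers of 7 other cell types were summed on the CPM scale (counts relative to library size, with TMM factors). The 12 epithelial markers summed to 4249 to 4726 CPM in CD26- control, 2723 to 4454 in CD26- CM, 699 to 1265 in CD26+ control and 640 to 1539 in CD26+ CM libraries, so the CD26- libraries held more epithelial marker RNA than any CD26+ library. The 9 immune markers summed to 25.5 to 55.5 CPM and the 5 erythroid markers to at most 0.0884 CPM over all libraries. The 7 skeletal muscle markers summed to 48.2 to 75.1 CPM in CD26- control, 44.7 to 108 in CD26- CM, 12.2 to 18.5 in CD26+ control and 6.00 to 19.5 in CD26+ CM libraries, and the 6 endothelial markers to at most 8.77 CPM. The 4 pericyte markers summed to 145 to 162, 49.3 to 96.8, 37.5 to 56.6 and 34.7 to 57.5 CPM in the same order of groups, and the 5 adipocyte markers to 14.3 to 16.0, 16.9 to 27.9, 22.3 to 37.8 and 32.7 to 89.1 CPM, with all 3 adipocyte markers tested called higher in CD26+ NFs in each medium. The 9 fibroblast markers summed to 16525 to 18490 CPM in CD26- control and 9813 to 21488 CPM in CD26- CM libraries. They summed to 62522 to 79501 CPM in CD26+ control and 29191 to 52131 CPM in CD26+ CM libraries. Of these 9, 8 were called higher in CD26+ NFs in control medium and 7 in CM, and 0 lower. The gene of CD26 itself, Dpp4, had at most 0.171 CPM in CD26- control and at most 0.0809 CPM in CD26+ control libraries, and 0.0776 to 0.881 CPM in CD26- CM and 0.715 to 7.80 CPM in CD26+ CM libraries, so that its RNA overlapped between the sorted types in each medium. By flow cytometry, the study reports that CD26 dropped quickly in CD26+ NFs after sorting and culture. In bulk RNA, fewer cells that express a gene and less RNA per cell cannot be told apart.

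Tumour CM raised the same 7 of the 9 genes tested, which leave out Steap3, in both fibroblast types: Steap1, Steap2, Steap4, Lcn2, Tfrc, Slc11a2 and Fth1 (edgeR FDR under 0.05 in each). Without CD26- control replicate 3 the count in CD26- NFs was 4, as Steap2, Lcn2 and Tfrc no longer passed there. Among all genes tested in CD26- NFs, 7.88% were called higher and 7.28% lower in CM. In CD26+ NFs these shares were 15.2% and 13.4%. The median log2 fold change of the 10 genes was 0.36 in CD26- and 0.44 in CD26+ NFs, while the medians over all genes tested were within 0.01 of 0. Slc39a14 and Slc40a1 did not pass in either type. Beyond the limit of 2 on the log2 scale that the study used, Steap4 and Lcn2 passed in both types, beside 0.904% of all genes in CD26- and 2.01% in CD26+ NFs. In CD26- NFs 4 of 5 skeletal muscle markers tested also rose with CM, from group means of 0.590 to 14.1 CPM for Myh3, 0.179 to 5.36 for Myog, 0.0285 to 1.86 for Myod1 and 0.295 to 1.60 for Tnnt3, while the most abundant of them, Acta1, was at 63.0 and 48.5 CPM (edgeR FDR 0.348). Of the 4 pericyte markers, Mcam fell from 93.6 to 33.4 CPM and Rgs5 from 4.94 to 1.09, while Des, which muscle also expresses, rose from 0.916 to 8.84 CPM, and of 3 endothelial markers tested Cdh5 rose from 1.63 to 3.78 CPM. In CD26+ NFs 1 of 11 epithelial markers was called lower with CM, and 1 of 5 immune and 1 of 3 adipocyte markers higher. Of the 9 fibroblast markers, 4 were called higher and 1 lower with CM in CD26- NFs, and 3 higher and 4 lower in CD26+ NFs. Group means in CD26+ NFs went from 23468 to 6633 CPM for Col3a1 and from 390 to 3566 CPM for Dcn. The part of all these markers in the CM changes was not tested.

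Between the fibroblast types, CD26+ NFs had more Steap1, Steap2 and Slc39a14 RNA and less Tfrc and Slc40a1 RNA, whichever the medium. In control medium that made 3 of the 9 tested genes higher and 2 lower, with 25.0% of all genes called higher and 25.4% lower. In tumour CM, Steap4 and Slc11a2 joined the higher genes and Lcn2 the lower ones, giving 5 and 3, with 29.3% of all genes called in each direction. With so many genes called between the types, nothing particular to the set is read from these counts. The response to CM itself differed between the types for 1 of the 9 genes, Tfrc, which rose more in CD26+ NFs; 4.53% of all genes had a more positive and 3.01% a more negative response in CD26+ NFs. With the tumour line, which pairs the CM cultures, as a block, 3 of the 9 passed, Steap4 (edgeR FDR 0.0499), Slc11a2 (0.0139) and Tfrc (0.00258). Leaving out any 1 of control replicates 2, 3 and 11, no gene of the 9 passed (edgeR; 2 had an unadjusted p under 0.05 each time), and 2 passed with DESeq2 on all libraries, without CD26- CM replicate 4 and without CD26+ CM replicate 18.

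**Figure D1:**
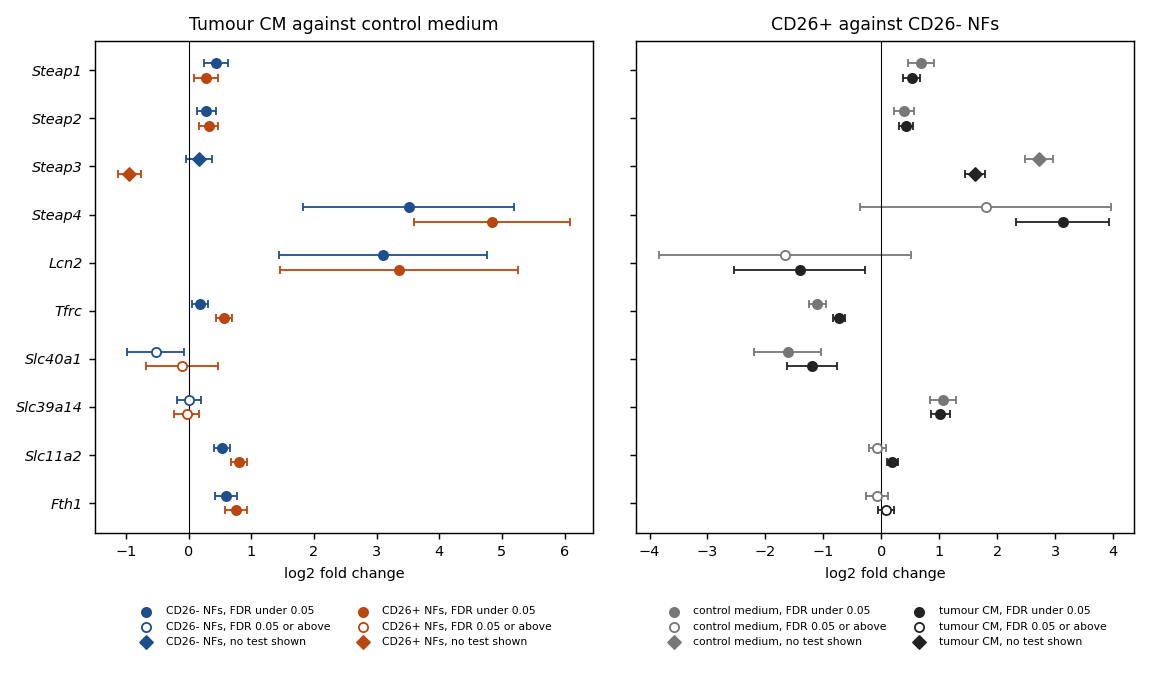
Fitted log2 fold changes of the 10 genes (points) with 95% intervals (bars), for tumour CM against control medium in each fibroblast type (left) and for CD26+ against CD26- NFs in each medium (right). Filled circles passed an edgeR FDR of 0.05, open circles did not, and diamonds mark Steap3, for which no test is shown. Steap4 and Lcn2 lie between 3.11 and 4.84 for CM in both types, with wide intervals, whereas Steap3 lies at -0.94 in CD26+ NFs.

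Steap4 (ENSMUSG00000012428, chromosome 5, 7960457 to 7982213, GRCm38), which encodes a ferric and cupric reductase of the plasma membrane and endosomes, had little RNA in control medium. The CD26- controls had 0.871, 0.512 and 1.02 CPM, which are 6 to 15 reads, and the CD26+ controls 3.16, 2.74 and 2.67 CPM. In tumour CM, CD26- NFs ranged from 2.30 to 13.4 CPM with a median of 9.81, and CD26+ NFs from 17.2 to 133 CPM with a median of 78.9. No CM library overlapped its controls, and every CD26+ CM library lay above every CD26- CM library. The log2 fold change was 3.51 ± 0.80 (SE; edgeR FDR 0.00742) in CD26- NFs, or 11.4-fold, and 4.84 ± 0.59 (edgeR FDR 1.52e-05) in CD26+ NFs, or 28.6-fold. The difference between these responses was 1.33 with a 95% interval of -1.29 to 3.95 (edgeR FDR 0.554), and 1.30 with an edgeR FDR of 0.0499 once the tumour line entered as a block. In tumour CM itself, CD26+ NFs had 8.73-fold more Steap4 RNA than CD26- NFs (log2 3.13 ± 0.38; edgeR FDR 1.71e-06). In control medium the difference was 1.80 ± 1.03 and did not pass in the fit over all 4 groups (edgeR FDR 0.157), though it did with DESeq2, in a fit of these control groups alone and without the CD26+ CM library of 13-MCB-138.

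The 250 bases before the annotated start of Steap4 (RefSeq, GRCm38.p6, chr5:7960222-7960471, plus strand) are shown because Steap4 had the largest fitted rise with CM of the 10 genes in both types. Capitals mark matches to the NF-kB consensus and to the C/EBP motif TTNNGNAA on either strand; NF-kB and C/EBP factors are known inducers of acute-phase genes.

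Steap4 promoter: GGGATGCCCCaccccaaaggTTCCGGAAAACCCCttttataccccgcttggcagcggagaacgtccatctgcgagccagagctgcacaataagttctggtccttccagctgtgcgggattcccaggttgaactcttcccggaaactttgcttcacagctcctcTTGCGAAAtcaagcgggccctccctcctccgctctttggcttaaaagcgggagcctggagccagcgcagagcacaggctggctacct

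The window held the NF-kB consensus at 2 positions, starting 250 and 226 bases before the start, and TTNNGNAA at 2 positions, starting 230 and 87 bases before it, the first of which overlaps the second NF-kB match. Over 32851 promoter windows of the same length, 7.25% held at least 1 NF-kB match and 36.8% at least 1 C/EBP match. These matches are letters in a window; binding was not measured.

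Lcn2 (ENSMUSG00000026822, chromosome 2, 32384633 to 32388252), which encodes the siderophore-binding protein lipocalin 2, rose with CM in both types. The CD26- controls had 16.7, 6.83 and 11.1 CPM and the CD26+ controls 5.67, 2.74 and 2.52 CPM. With CM, CD26- NFs ranged from 3.71 to 181 CPM (median 96.0) and CD26+ NFs from 7.15 to 51.3 CPM (median 44.0). One CD26- CM library, that of line 13-MCB-138, lay below all 3 of its controls, so these groups overlapped, whereas all 6 CD26+ CM libraries lay above theirs. The log2 fold change was 3.11 ± 0.79 (SE; edgeR FDR 0.0140) in CD26- and 3.36 ± 0.90 (edgeR FDR 0.00980) in CD26+ NFs. Without both 13-MCB-138 libraries, a choice made after the data were seen, the values were 3.36 (edgeR FDR 5.74e-05) and 3.57 (edgeR FDR 1.85e-05). These libraries held the lowest Lcn2 of each CM group, so the smaller FDRs are not read as support. The call in CD26- NFs ended without control replicate 2 or 3, and that in CD26+ NFs without control replicate 11. The responses differed by 0.25, with a 95% interval of -2.21 to 2.71, and in control medium CD26+ NFs differed from CD26- NFs by -1.66 ± 1.04 (edgeR FDR 0.194, and 0.00156 in a fit of these control groups alone).

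In tumour CM, CD26+ NFs had less Lcn2 RNA than CD26- NFs (log2 difference -1.41 ± 0.53; edgeR FDR 0.0308), and they had less with 5 of the 6 lines. This is the opposite order to Steap4, which was higher in CD26+ NFs with CM of all 6 lines. Epithelial marker RNA was also higher in the CD26- libraries, and its part in this difference was not tested. With the mean log2 level of the epithelial markers as a covariate, which nearly separates the types and so removes part of any difference between them by construction, the Lcn2 difference in CM was 0.11 (edgeR FDR 0.967), while that of Steap4 was 2.85 (edgeR FDR 0.0304). The call also did not pass with DESeq2, in a fit of the CM groups alone (edgeR FDR 0.0610), nor without any 1 of the CD26- CM libraries of lines 10-SJK-221, 13-MCB-44 and 13-MCB-90 or the CD26+ library of 10-SJK-221.

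The matching window of Lcn2 (RefSeq, GRCm38.p6, chr2:32387740-32387989, minus strand) is given for comparison with that of Steap4, with the same capitals. It lies within the gene span printed above for Lcn2, so bases are counted from a RefSeq start inside that span.

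Lcn2 promoter: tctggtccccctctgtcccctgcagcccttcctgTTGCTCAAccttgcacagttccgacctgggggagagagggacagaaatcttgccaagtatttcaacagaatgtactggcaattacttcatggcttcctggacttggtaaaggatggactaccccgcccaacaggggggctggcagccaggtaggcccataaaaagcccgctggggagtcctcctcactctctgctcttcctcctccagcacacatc

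It held the C/EBP motif at 1 position, 216 bases before the start, and no NF-kB match within these 250 bases. Windows of 7 of the 10 genes were in the promoter table, 14 windows in all. Besides Steap4, 1 window of Steap2 and 1 of Steap3 held the NF-kB consensus.

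**Figure D2:**
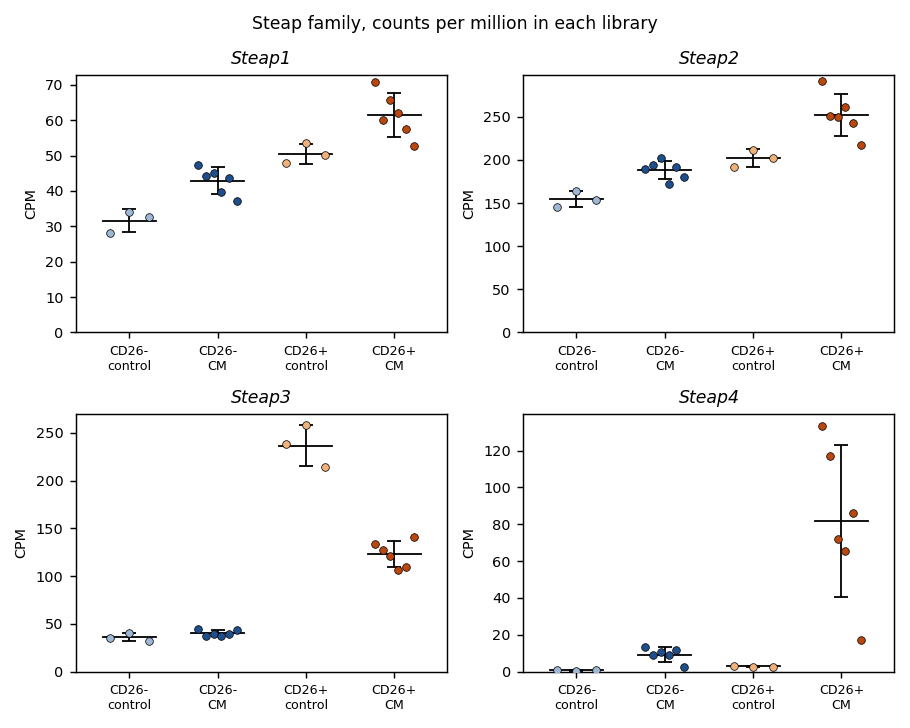
CPM of the Steap genes in each library (points), with group mean (line) and SD (bars), n = 3 control and n = 6 CM libraries in each fibroblast type. Steap4 reaches 133 CPM in CD26+ CM libraries from about 2.86 CPM in their controls, whereas Steap3 is at 237 CPM in CD26+ controls and 123 CPM in CD26+ CM libraries.

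Steap3 (ENSMUSG00000026389, chromosome 1, 120190757 to 120272705) encodes the endosomal ferrireductase best known from red cell precursors, where it acts in the transferrin cycle. CD26- NFs had 35.1, 40.6 and 32.6 CPM in control medium and 37.3 to 45.0 CPM (median 39.2) in CM. CD26+ NFs had 238, 258 and 214 CPM in control medium and 106 to 141 CPM (median 124) in CM. All CD26+ libraries lay above all CD26- libraries, and all 6 CD26+ CM libraries lay below their 3 controls, whereas the CD26- groups overlapped. The log2 difference between the types was 2.72 ± 0.11 (SE) in control medium and 1.61 ± 0.08 in CM. With CM, Steap3 changed by -0.94 ± 0.09 in CD26+ and by 0.16 ± 0.10 in CD26- NFs, a difference of -1.10 ± 0.13. Among the Steap genes it thus had the reverse order of control and CM in CD26+ NFs. The erythroid markers were at or near 0 in all libraries.

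Steap1 and Steap2 lie 41739 bases apart on chromosome 5, with Steap4 a further 2211131 bases away, and Steap3 lies on another chromosome. Steap1 (ENSMUSG00000015652, 5736317 to 5749326), which lacks the reductase domain of its relatives, had 31.6 ± 3.20 CPM (SD, n = 3) in CD26- control, 42.9 ± 3.80 (n = 6) in CD26- CM, 50.5 ± 2.80 (n = 3) in CD26+ control and 61.5 ± 6.29 (n = 6) in CD26+ CM libraries. Steap2 (ENSMUSG00000015653, 5664829 to 5694578), a ferric and cupric reductase, had 155 ± 9.57, 188 ± 10.6, 202 ± 10.2 and 252 ± 24.2 CPM in the same order. Both genes thus rose in the same order of groups, and in CM both were higher in CD26+ NFs with each of the 6 lines. No CM library overlapped its controls except 1 of Steap1, the CD26+ library of 13-MCB-138 (52.8 CPM, against 47.9 to 53.5).

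The CM response of Steap1 was 0.44 ± 0.09 (SE, log2; edgeR FDR 0.00492) in CD26- and 0.28 ± 0.09 (edgeR FDR 0.0247) in CD26+ NFs. That of Steap2 was 0.28 ± 0.07 (edgeR FDR 0.0154) and 0.32 ± 0.07 (edgeR FDR 0.00339). The Steap1 call in CD26+ NFs was lost without any 1 control replicate or without CM replicate 13 or 15, and the Steap2 call in CD26- NFs without control replicate 1 or 3. Neither response differed between the types beyond its error: the 95% interval of the difference was -0.43 to 0.11 for Steap1 and -0.18 to 0.25 for Steap2. Between the types, Steap1 was higher in CD26+ NFs by 0.68 ± 0.11 in control medium and 0.52 ± 0.07 in CM (edgeR FDR 4.03e-05 and 9.34e-06), and Steap2 by 0.39 ± 0.08 and 0.42 ± 0.06 (edgeR FDR 0.000941 and 8.62e-06). With the epithelial covariate these values were 0.53, 0.38, 0.33 and 0.37, and none of them passed (edgeR FDR 0.0836, 0.133, 0.187 and 0.0794).

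**Figure D3:**
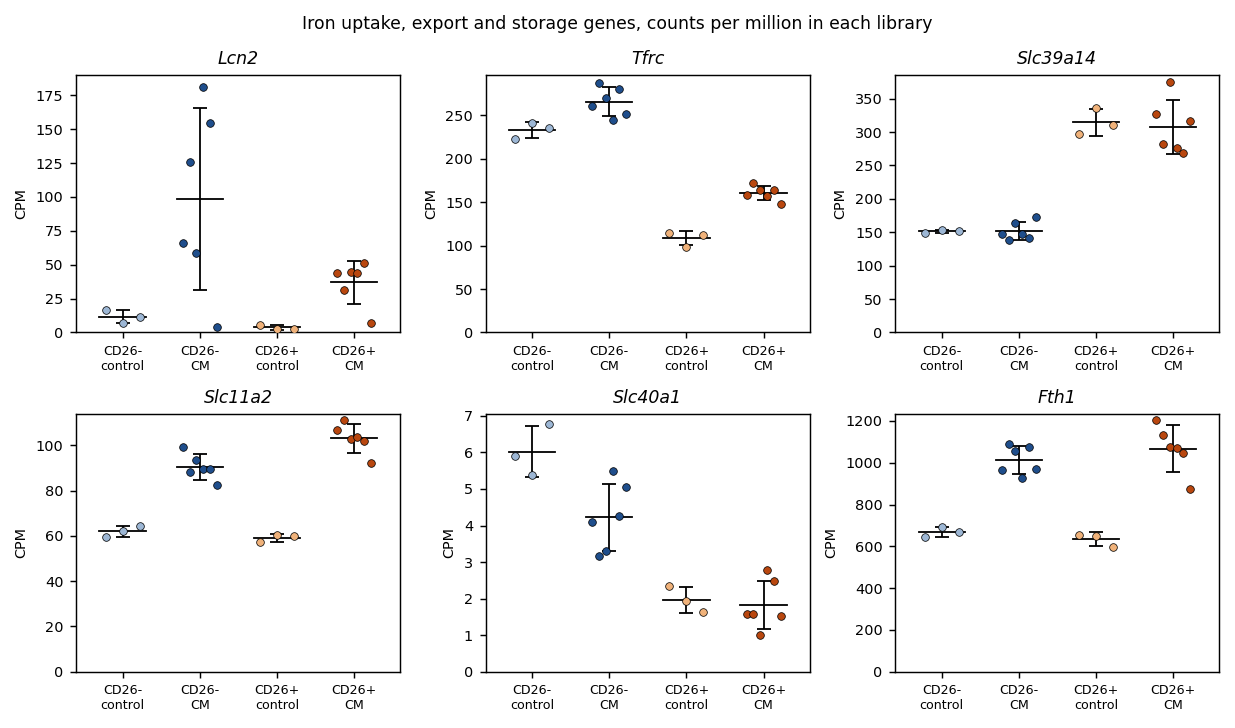
CPM of Lcn2 and the iron uptake, export and storage genes in each library (points), with group mean (line) and SD (bars), n = 3 control and n = 6 CM libraries in each fibroblast type. Fth1 and Slc11a2 are higher in all CM libraries than in their controls, and Tfrc and Slc40a1 are lower in CD26+ than in CD26- NFs.

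Tfrc (ENSMUSG00000022797, chromosome 16, 32608920 to 32632794), the transferrin receptor through which most cells take up iron, was lower in CD26+ NFs. The CD26- controls had 223, 241 and 236 CPM and the CD26+ controls 114, 99.0 and 112 CPM. In CM the ranges were 245 to 288 CPM (median 266) and 148 to 172 CPM (median 161). Every CM library lay above its controls, and no CD26+ library reached the lowest CD26- library in either medium. CD26+ NFs were lower by 1.10 ± 0.07 (SE, log2; edgeR FDR 4.55e-09) in control medium and by 0.73 ± 0.05 in CM (edgeR FDR 3.22e-09). CM raised Tfrc 1.48-fold in CD26+ NFs (0.57 ± 0.06; edgeR FDR 5.76e-06) and 1.14-fold in CD26- NFs (0.19 ± 0.06; edgeR FDR 0.0436), and the responses differed by 0.38 ± 0.09 (edgeR FDR 0.0154). The call in CD26- NFs was lost under 15 of 27 alternatives. The difference between the responses no longer passed when CD26- control replicate 2, CD26- control replicate 3 or CD26+ control replicate 11 was left out, with values of 0.30 to 0.41 over all alternatives.

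Tfrc carries several iron-responsive elements, hairpins with a CAGTG loop whose occupancy by iron-regulatory proteins protects the messenger from decay; in ferritin and ferroportin messengers a single such hairpin before the coding sequence holds back translation instead. A search of the annotated protein-coding transcripts (GENCODE M21, GRCm38) for an unpaired C, 5 bases, CAGTG, 1 base and 5 bases pairing with the first 5 found these hairpins in the untranslated parts of 3 of the 10 genes. They are shown since the RNA of all 3 genes is measured here, and capitals mark the loop. Sites were in 1 of 3 annotated protein-coding transcripts of Tfrc, 4 of 5 of Fth1 and 1 of 4 of Slc40a1. The gene counts do not tell these transcripts apart.

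Tfrc site 1: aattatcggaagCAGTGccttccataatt
Tfrc site 2: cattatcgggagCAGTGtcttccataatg
Tfrc site 3: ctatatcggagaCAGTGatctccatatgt
Tfrc site 4: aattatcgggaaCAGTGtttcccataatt
Fth1 site: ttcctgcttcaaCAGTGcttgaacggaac
Slc40a1 site: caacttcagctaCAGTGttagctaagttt

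The 4 Tfrc sites lie after the coding sequence at chr16:32631219-32631247, chr16:32631598-32631626, chr16:32631663-32631691 and chr16:32631710-32631738 (plus strand). The Fth1 site lies before it at chr19:9982732-9982760 (plus strand) and the Slc40a1 site at chr1:45925465-45925493 (minus strand). Of 21901 protein-coding genes, 0.731% had such a match in an untranslated part. The search found none in Slc11a2, whose known 3′ element has an extra bulge that this rule does not allow.

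Fth1 (ENSMUSG00000024661, chromosome 19, 9980598 to 9985098), the ferritin heavy chain that oxidises iron for storage, was the most abundant of the 10 genes per length. Its group means were 183 to 308 CPM per kb of exon, against 0.203 to 0.669 CPM per kb for Slc40a1 at the low end. The CD26- controls had 645, 692 and 671 CPM and the CD26+ controls 655, 650 and 595 CPM. CM raised the ranges to 927 to 1088 CPM (median 1013) in CD26- and 874 to 1204 CPM (median 1075) in CD26+ NFs, with no overlap between CM and control in either type. The log2 fold change was 0.60 ± 0.08 (SE; edgeR FDR 0.000300) and 0.75 ± 0.08 (edgeR FDR 5.14e-06). The types did not differ beyond their spread, by -0.08 (95% interval -0.27 to 0.11) in control medium and by 0.08 (-0.06 to 0.21) in CM. Processed pseudogenes of Fth1 had at most 3 reads in any library, and reads that fit both a gene and its pseudogene may be lost in counting, so its level is uncertain. Ftl1, the ferritin light chain, had 310 ± 44.8 CPM in CD26- control, 320 ± 12.0 in CD26- CM, 172 ± 10.4 in CD26+ control and 224 ± 27.4 in CD26+ CM libraries. Unlike Fth1 it differed between the types, by -0.85 in control medium (edgeR FDR 6.39e-06) and by -0.51 in CM (edgeR FDR 2.11e-05), and its response to CM was 0.05 (edgeR FDR 0.793) in CD26- and 0.38 (edgeR FDR 0.00702) in CD26+ NFs.

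Slc11a2 (ENSMUSG00000023030, chromosome 15, 100387898 to 100425072) encodes DMT1, which carries reduced iron out of the endosome. Its control values were 59.7, 62.2 and 64.6 CPM in CD26- and 57.2, 60.5 and 59.8 CPM in CD26+ NFs. In CM they were 82.3 to 99.5 CPM (median 89.4) and 92.3 to 111 CPM (median 103), above every control. The change was 0.54 ± 0.06 (SE, log2; edgeR FDR 8.75e-05) in CD26- and 0.80 ± 0.06 (edgeR FDR 1.70e-07) in CD26+ NFs, so that Slc11a2 ranked 9th and 13th by p among all genes tested. The responses differed by 0.26 (95% interval 0.08 to 0.44), which did not pass over all genes (edgeR FDR 0.0637) but did with the line as a block and with DESeq2. In control medium the types differed by -0.07 (edgeR FDR 0.414), and in CM CD26+ NFs were higher by 0.19 ± 0.05 (edgeR FDR 0.00242). That call was lost when counts were scaled to library size alone (0.048; edgeR FDR 0.445) and with the epithelial covariate (0.082; edgeR FDR 0.664).

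Slc39a14 (ENSMUSG00000022094, chromosome 14, 70303469 to 70351425), the zinc and iron importer ZIP14, separated the types but not the media. CD26- NFs had 148, 154 and 152 CPM in control medium and 138 to 173 CPM (median 147) in CM, and CD26+ NFs had 297, 336 and 310 CPM and 269 to 374 CPM (median 299.9). CD26+ NFs were higher by 1.06 ± 0.11 (SE, log2; edgeR FDR 4.94e-07) in control medium and 1.02 ± 0.08 (edgeR FDR 7.73e-09) in CM, with no overlap. The 95% interval of the CM response was -0.19 to 0.20 in CD26- and -0.22 to 0.16 in CD26+ NFs.

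Slc40a1 (ENSMUSG00000025993, chromosome 1, 45908068 to 45926523), which encodes the iron exporter ferroportin, was expressed at low levels. The CD26- controls had 5.91, 5.38 and 6.77 CPM and the CD26+ controls 2.35, 1.93 and 1.63 CPM, and in CM the ranges were 3.16 to 5.48 CPM (median 4.18) and 1.01 to 2.77 CPM (median 1.58). Each CD26+ library had less than any CD26- library in the same medium. CD26+ NFs were lower by 1.62 ± 0.28 (SE, log2; edgeR FDR 0.000102) in control medium and by 1.20 ± 0.20 (edgeR FDR 7.16e-05) in CM. With the epithelial covariate the differences were -0.25 (edgeR FDR 0.739) and 0.06 (edgeR FDR 0.936). CM changed it by -0.52 (95% interval -0.97 to -0.07; edgeR FDR 0.112) in CD26- and by -0.10 (-0.67 to 0.47; edgeR FDR 0.815) in CD26+ NFs.

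**Figure D4:**
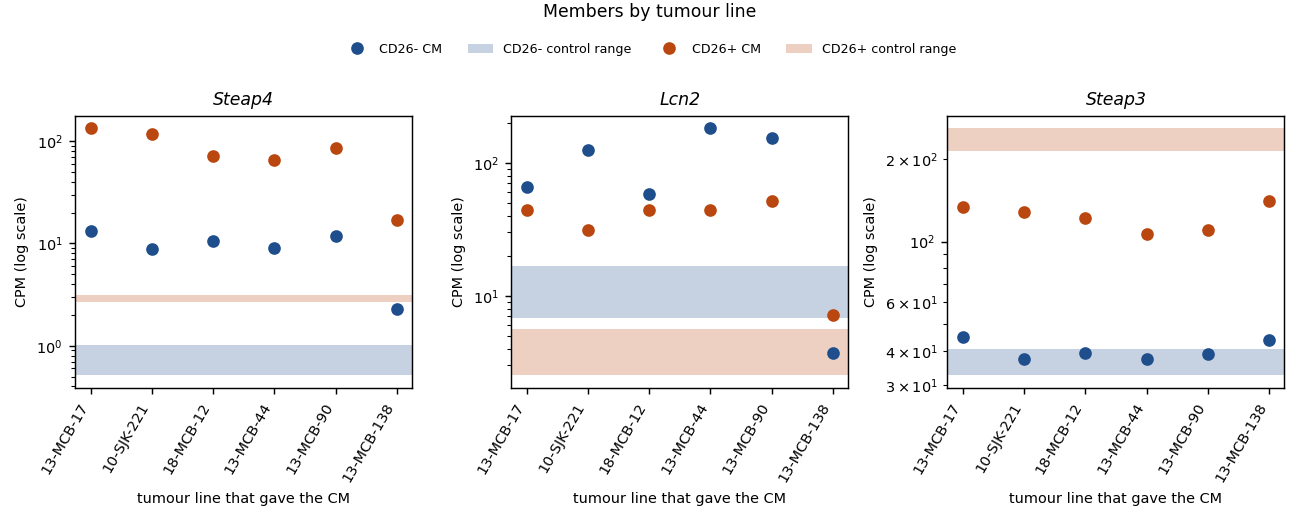
CPM (log scale) of Steap4, Lcn2 and Steap3 in each CM library by the tumour line that gave the CM (points), with the range of the 3 control libraries of each type (bands). CM of line 13-MCB-138 gave the lowest Steap4 (2.30 and 17.2 CPM) and Lcn2 (3.71 and 7.15 CPM) in both types, and the highest Steap3 in CD26+ NFs (141 CPM).

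Among the CM lines, Steap4 and Lcn2 were the 2 of the 9 tested genes that differed (edgeR FDR 0.00325 and 0.0364, 5 line terms tested together over 12 libraries with the fibroblast type in the model), beside 6.56% of 13344 genes. CM of 13-MCB-138 gave the lowest value of both genes in both types. For Steap4 it was still 2.88-fold above the control mean in CD26- and 6.01-fold in CD26+ NFs, against 11.1- to 16.7-fold and 23.0- to 46.7-fold with the other lines. For Lcn2 it was at 0.322 of the control mean in CD26- and 1.96-fold above it in CD26+ NFs, against 5.07- to 15.7-fold and 8.53- to 14.1-fold with the others. Without both 13-MCB-138 libraries neither gene passed (edgeR FDR 0.0575 and 0.295), and the Lcn2 call was also lost without any 1 of 9 single libraries (edgeR FDR 0.0549 to 0.0899). Slc39a14 did not pass (edgeR FDR 0.107) but did with no filter on low counts (0.00981) and without CD26+ CM replicate 18 (0.0426). Line 13-MCB-17 gave the most Steap4 in both types, 13.4 and 133 CPM. Lcn2 was highest with 13-MCB-44 in CD26- (181 CPM) and with 13-MCB-90 in CD26+ NFs (51.3 CPM).

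The other genes varied less with the line. Steap1, Steap2, Tfrc, Slc11a2 and Fth1 were also lowest with 13-MCB-138 in CD26+ NFs, at 52.8, 218, 148, 92.3 and 874 CPM. In CD26- NFs Steap1 and Slc11a2 were lowest with 13-MCB-138, whereas Steap2, Tfrc and Fth1 were lowest with 13-MCB-44. None of these genes passed the test of the lines (edgeR FDR 0.0959, 0.543, 0.190, 0.247 and 0.517). With each line, CD26+ NFs had more Steap1, Steap2, Steap3, Steap4, Slc39a14 and Slc11a2 RNA than CD26- NFs and less Tfrc and Slc40a1 RNA. Since 1 culture of each type received each line's CM, a line effect cannot be told apart from a batch of CM.

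Genes whose levels followed the members most closely were sought over all 18 libraries among the 10611 genes whose mean reached 5 CPM, as a description, since all libraries share the same 4 groups. Steap3 was followed by Smo, the Hedgehog signal transducer (Pearson r = 0.990), Tnfrsf1a, a TNF receptor (0.987), and Tspan4 (0.984). Steap4 was followed by Rac3, a small GTPase (0.977), Mt2, a metallothionein (0.974), and Dcn, the proteoglycan decorin (0.974). For Lcn2 the closest genes were Trip10 (0.904), Capn5 (0.904) and Trf (0.871), the last of which encodes transferrin. Tfrc was followed by Gfod1, Otud4 and Bdkrb2 (0.979 to 0.980), and Slc39a14 by Crtap, Dsel and Plod1 (0.988 to 0.992), of which Crtap and Plod1 encode proteins that modify collagen. Over the 12 CM libraries alone the values for Lcn2 were 0.801, 0.825 and 0.715.

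Of 38 other iron and heme genes tested, 8 were higher and 1 lower with CM in CD26- NFs, and 14 higher and 4 lower in CD26+ NFs, where all genes gave the shares of 7.88% and 7.28%, and 15.2% and 13.4%, stated above. The 9 calls in CD26- NFs became 3 to 5 without any 1 of the 3 CD26- control libraries or of CD26- CM replicates 5 and 8. The higher calls shared 5 genes, which are 5 of the 8 and 5 of the 14: Hmox1, Blvrb, Trf, Hp and Slc48a1. Hmox1 and Blvrb, which degrade heme and its product biliverdin, rose by 0.86 and 0.89 (log2) in CD26- NFs (edgeR FDR 0.000704 and 0.00357). In CD26+ NFs Hmox1 rose by 0.95 (edgeR FDR 9.37e-05). Trf rose by 1.80 in CD26- (edgeR FDR 0.00692) and 2.46 in CD26+ NFs (edgeR FDR 0.00102). Hp, which encodes haptoglobin, the binder of free hemoglobin, rose by 2.40 in CD26+ NFs (edgeR FDR 0.000427), from 22.0 ± 6.50 to 116 ± 29.1 CPM. Fech, the last enzyme of heme synthesis, fell by 0.20 in both types (edgeR FDR 0.0261 and 0.0153). In CD26+ NFs Tfr2, the second transferrin receptor, and Neo1 fell by 1.92 and 0.47 (edgeR FDR 0.00757 and 0.00635).

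The response differed between the types for 2 of these 38 genes, beside 4.53% of all genes more positive and 3.01% more negative. The count was 1 without any single one of control replicates 1, 3, 11 and 12, 4 without CD26+ CM replicate 18 and 6 without both 13-MCB-138 libraries. Slc48a1, a heme transporter, rose by 1.02 in CD26+ and 0.32 in CD26- NFs, a difference of 0.70 ± 0.14 (SE; edgeR FDR 0.00881). Cp, the ferroxidase ceruloplasmin, changed by 1.65 in CD26+ (edgeR FDR 0.00431) and -0.34 in CD26- NFs (edgeR FDR 0.554), a difference of 2.00 ± 0.52 (edgeR FDR 0.0266). Between the types, in control medium 9 of these genes had more and 9 less RNA in CD26+ NFs, beside 25.0% and 25.4% of all genes, and in CM these counts were 10 and 12, beside 29.3% each way. With the epithelial covariate 3 of the 38 were called in control medium and 4 in CM, where the share of all genes called also fell, to 10.8% and 11.1%. Slc22a17, a proposed receptor for lipocalin 2, was higher in CD26+ NFs by 1.61 and 1.29 (edgeR FDR 2.40e-07 and 2.39e-08), and Hp by 4.43 and 4.14 (edgeR FDR 4.90e-05 and 4.35e-08). Hfe, a partner of the transferrin receptor, was higher by 1.80 in control medium (edgeR FDR 1.20e-05), and Hpx, the heme-binding hemopexin, by 2.69 in CM (edgeR FDR 1.70e-05). Hmox1 was lower by 0.86 and 0.78 (edgeR FDR 0.000175 and 7.79e-06), Slc48a1 by 1.02 in control medium (edgeR FDR 1.82e-06), and Nfs1, which builds iron-sulfur clusters, by 0.32 in CM (edgeR FDR 9.15e-06).

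**Figure D5:**
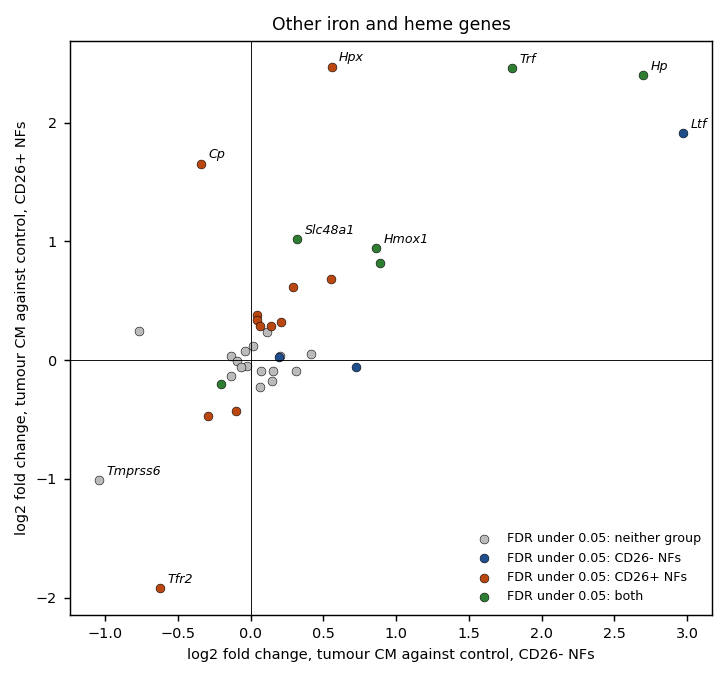
Log2 fold change with tumour CM of 38 other iron and heme genes in CD26- (horizontal) and CD26+ NFs (vertical), 1 point per gene, coloured by the fibroblast type in which the gene passed an edgeR FDR of 0.05. Trf and Hp lie above 1.7 on both axes, whereas Cp lies at -0.34 and 1.65.

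Of 4 other genes known for iron-responsive elements, 1 of them Ftl1, which is also counted among the iron and heme genes, Epas1, a hypoxia-inducible factor, was higher in CD26+ NFs by 1.28 in control medium and 2.42 in CM (edgeR FDR 0.000169 and 1.68e-09). Epas1 rose with CM by 1.67 in CD26+ NFs (edgeR FDR 8.50e-06) and changed by 0.52 in CD26- NFs (edgeR FDR 0.0994), and these responses differed by 1.15 (edgeR FDR 0.0192). Cdc14a fell with CM in CD26- NFs by 0.49 (edgeR FDR 0.0303) and was lower in CD26+ NFs by 1.53 and 0.95 (edgeR FDR 2.30e-06 and 6.35e-06). Between the types 1 of the 4 was higher and 3 lower in each medium, beside 25.0% and 25.4% of all genes in control medium and 29.3% each way in CM. These calls fell with the epithelial covariate from 4 to 1 in control medium and from 4 to 2 in CM, where 10.8% and 11.1% of all genes were then called. The CM call of Cdc14a in CD26- NFs was also lost (-0.35; edgeR FDR 0.104).

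Of 12 copper and metallothionein genes, 2 were higher and 1 lower with CM in CD26- NFs, and 5 higher and 2 lower in CD26+ NFs, beside 7.88% and 7.28%, and 15.2% and 13.4%, of all genes. The 2 shared higher genes were the metal-binding metallothioneins Mt1 and Mt2. Mt2 rose by 1.76 in CD26- (edgeR FDR 0.00145) and 2.79 in CD26+ NFs (edgeR FDR 4.64e-06), and Mt1 by 1.18 (edgeR FDR 0.00389) and 1.78 (edgeR FDR 4.34e-05). Neither difference in response passed in the fit without the line (edgeR FDR 0.120 and 0.261). With the line as a block, 1 of the 12 genes passed for this difference. Slc31a2, a copper transporter of endosomes, rose by 0.52 in CD26+ NFs (edgeR FDR 0.00752), where the importer Slc31a1 fell by 0.24 (edgeR FDR 0.0188). Sod1, the copper and zinc superoxide dismutase, fell by 0.18 and 0.16 in the types (edgeR FDR 0.0117 and 0.0125). Sod1 was lower in CD26+ NFs by 0.29 and 0.27 (edgeR FDR 0.000131 and 5.36e-06), and the copper chaperone Atox1 by 0.44 and 0.25 (edgeR FDR 0.000302 and 0.00144). In control medium Slc31a2 was also lower in CD26+ NFs (-0.43; edgeR FDR 0.0282), and Slc31a1, Atp7a and Commd1 were higher by 0.23, 0.36 and 0.32 (edgeR FDR 0.0291, 0.0452 and 0.0464). In CM, Mt2, Mt1 and Atp7a were higher in CD26+ NFs by 1.76, 1.13 and 0.59 (edgeR FDR 1.78e-06, 4.20e-05 and 7.08e-05). With the epithelial covariate none of the 12 passed between the types in either medium (edgeR; 1 and 2 had an unadjusted p under 0.05), beside 10.8% and 11.1% of all genes.

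Of the 17 other zinc transporters tested, of which Slc39a8 is also among the iron and heme genes, none passed for CM in CD26- NFs with edgeR or DESeq2 (5 had an unadjusted edgeR p under 0.05), though Slc39a4 did with the epithelial covariate (1.33; edgeR FDR 0.0258), while 2 were higher and 3 lower in CD26+ NFs, beside 15.2% and 13.4% of all genes. These were Slc39a6 and Slc30a9 (0.56 and 0.18; edgeR FDR 0.000419 and 0.00737) and Slc39a11, Slc39a10 and Slc39a8 (-0.56, -0.28 and -0.43; edgeR FDR 0.000430, 0.00283 and 0.0274). Without tumour medium CD26+ NFs had 8 of these genes higher and 2 lower than CD26- NFs, and with it 10 higher and 2 lower, beside 25.0% and 25.4%, and 29.3% each way, of all genes. The epithelial covariate left 2 and 3 of the 17 called, beside 10.8% and 11.1% of all genes. Slc39a1, Slc30a7 and Slc39a10 led in control medium (0.52, 0.58 and 0.56; edgeR FDR 1.09e-06, 3.35e-06 and 6.95e-06), and Slc30a7, Slc39a1 and Slc30a5 in CM (0.64, 0.38 and 0.35; edgeR FDR 1.25e-08, 4.22e-07 and 1.15e-05). The lower genes were Slc39a4 and Slc39a5 in control medium (-1.89 and -1.03; edgeR FDR 0.0104 and 0.0218) and Slc39a4 and Slc30a4 in CM (-2.37 and -0.27; edgeR FDR 2.95e-05 and 0.00703).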

How the data were processed

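RNA from 18 fibroblast cultures was sequenced as stranded mRNA libraries. The authors deposited whole-number gene counts, which per the labels came from HISAT2 2.1.0 and HTSeq on GRCm38; 1 row without a gene held 0 counts. Genes were kept by edgeR's filterByExpr by group, scaled by TMM and fitted together (edgeR 4.0.16, R 4.3.3, quasi-likelihood F test) with a term for each of 4 groups; 14273 genes were tested, and Benjamini-Hochberg FDR runs over all of them. CM lines were compared over the 12 CM libraries with cell type in the model. The study used DESeq2, here (1.42.0) an alternative. Levels per kb use GENCODE M21 exon length. Libraries given CM of the same line deviated together (r 0.247 to 0.406 in all 6 pairs), so the line pairs cultures and was tried as a block. The members and gene lists were chosen with earlier results of these data known. Named were all 10 members, from each other list up to 3 genes per direction with the smallest p past the FDR in each group comparison, and the 3 genes most correlated with 5 members. Where this rule led to a withheld gene, it is not reported here. Other genes were named after their values were seen where a sentence counts them. The fits were also run on simulated counts with known changes, and the outcome is not given here. Intervals cover counting and culture spread only.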

Additional observations from a re-analysis of the deposited data

Results flagged for a closer look

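In 20 groups of 6 CM libraries (10 genes in each fibroblast type), the sample at one end was set against the spread of the rest by Dixon's test on log2 CPM, which by chance picks about 1 group in 20. It picked 4, all of them libraries given CM of line 13-MCB-138. Steap3 was among the 10 genes screened and gave none of the 4. Steap4 was at 2.30 CPM in CD26- CM replicate 9, where the other 5 libraries lay between 8.84 and 13.4, and at 17.2 CPM in CD26+ CM replicate 18, where the others lay between 65.6 and 133. Lcn2 was at 3.71 CPM in CD26- CM replicate 9, against 58.5 to 181, and at 7.15 CPM in CD26+ CM replicate 18, against 31.1 to 51.3. The CD26- library had 11240481 counts, the fewest of the 12 CM libraries, and the CD26+ library 11698481, where CD26+ CM libraries ranged from 11594468 to 13890291.

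The response to CM differed between the fibroblast types for Tfrc by 0.38 (edgeR FDR 0.0154, interaction term), with every CM library above its controls in both types.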

How the results depend on the processing

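Values of the 9 genes other than Steap3, which was given no test between groups, were also taken under alternatives. These were other scaling and filters, DESeq2, subsets of groups, an epithelial covariate, the line as a block and each library left out. Both 13-MCB-138 libraries were also left out, an alternative added after the data were seen. Of 1380 such values, 1294 kept their direction and side of the threshold, 52 lost and 13 gained a call and 21 changed sign. The cause was not tested. Scaling to library size alone moved the median of all genes by -0.14 in both comparisons of the types and gave Fth1 -0.067 in CM, against 0.075.

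With each library left out in turn, the number of the 9 genes called was 4 to 7 for CM in CD26- NFs (main 7), 5 to 7 for CM in CD26+ NFs (7), 5 to 6 between types in control medium (5), 7 to 8 in CM (8), 0 to 2 for the difference in response (1; where 0 passed with edgeR, 2 had an unadjusted p under 0.05) and 1 to 3 for the lines (2); for the other iron and heme genes it was 3 to 12 (9), 12 to 19 (18), 15 to 20 (18), 20 to 25 (22) and 1 to 4 (2). The lowest counts for CM in CD26- NFs came without CD26- control replicate 3, which left 4 and 3. Blocking on the line gave 3 of the 9 genes for the difference in response, adding Steap4 and Slc11a2, and 2, 1 and 3 in place of 1, 0 and 0 of the iron-responsive element, copper and zinc genes; in the only other comparison run with the block, the types in CM, it changed no call of the 9 genes. DESeq2 gave 2 of the 9 genes for that difference. Without both 13-MCB-138 libraries the difference in response counted 2 of the 9 and 6 iron and heme genes, and 0 of the 9 genes passed for the lines (edgeR; main 2; 3 had an unadjusted p under 0.05).

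With no filter on low counts, 5 other iron and heme genes were called for CM in CD26- NFs. With the epithelial covariate these were 5 for CM in CD26- NFs, 3 between types in control medium and 4 in CM, and of the 9 genes 2 and 3 were called between types. All genes called then made up 9.44%, 10.8% and 11.1%. This score nearly separates the types, so it removes part of their difference by construction. Requiring also a log2 fold change over 2 left 2 of the 9 genes and 2 other iron and heme genes for CM in CD26- NFs, 2 and 3 in CD26+ NFs, 0 and 2 between types in control medium, 1 and 3 in CM, and 0 and 0 for the difference, beside 0.904, 2.01, 5.97, 4.16 and 0.392% of all genes; over 1 it left 2 and 3, 2 and 6, 3 and 7, 4 and 6, and 0 and 1, beside 3.53, 6.68, 17.0, 14.3 and 1.90%.

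Signs changed mostly in values that did not pass. For CM in CD26- NFs Slc39a14 was -0.0032 with DESeq2, -0.0023 with RLE, -0.0031 with no filter, -0.052 with the epithelial covariate and -0.034 without line 13-MCB-138, and -0.034 to 0.033 with single libraries left out. With single libraries left out it was -0.10 to 0.0054 for CM in CD26+ NFs and -0.11 to 0.0021 for the difference, where Lcn2 was -0.095 to 0.70 and Steap2 -0.020 to 0.068. Slc40a1 for CM in CD26+ NFs was -0.28 to 0.034, and 0.050 with the epithelial covariate, which also turned the difference between types in CM of Lcn2 and Slc40a1, both called otherwise, to 0.11 and 0.056.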
